A study of Mus musculus with 2 samples.

Results

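Insulin-like growth factor (IGF) genes were followed across the cells of mouse vein grafts: the ligands Igf1 and Igf2, the receptor Igf1r and the binding proteins Igfbp2, Igfbp3, Igfbp4, Igfbp5, Igfbp6 and Igfbp7. These 9 genes were picked by symbol from the 32285 genes of the deposited count tables, and each symbol stood in 1 row. The study measured single-cell RNA in 2 libraries, 1 of conventional and 1 of No-Touch vein grafts, both from C57BL6/J mice aged 10 to 12 weeks. A vein graft is a vein moved into the arterial circulation, and in the No-Touch technique the vein is taken with the tissue around it. Live nucleated cells without CD45, the surface antigen of leukocytes, were sorted from digested grafts in both groups. The number of animals and grafts pooled in a library, the time after grafting and which of the 2 named versions of the droplet kit served each library are not given in the sources used here. Each group being a single library, there is no replicate error to test against, and every difference below is one between these 2 libraries.

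IGF1 and IGF2 are small secreted proteins that bind the receptor tyrosine kinase IGF1R and drive growth and survival through the PI3K and Akt pathway. Most IGF outside cells is held by IGF binding proteins, which lengthen its life and can keep it from the receptor or carry it to the matrix, and proteases that cut the binding proteins set it free. In vessel walls, IGF1 is known as a growth and survival factor of smooth muscle cells, and IGFBP7 as a low-affinity relative of the family found in the matrix around vessels.

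In GENCODE M21 on the mouse build GRCm38, all 9 are protein-coding genes. Igf1 (ENSMUSG00000020053) lies on chromosome 10 from 87858265 to 87937042 on the plus strand, Igf2 (ENSMUSG00000048583) on chromosome 7 from 142650766 to 142666816 on the minus strand, and Igf1r (ENSMUSG00000005533) on chromosome 7 from 67952827 to 68233668 on the plus strand. Igfbp2 (ENSMUSG00000039323; chromosome 1, 72824503 to 72852474, plus strand) and Igfbp5 (ENSMUSG00000026185; chromosome 1, 72857932 to 72874884, minus strand) are neighbours with 5457 bases between them. Igfbp3 (ENSMUSG00000020427) is on chromosome 11 from 7206086 to 7213923 on the minus strand and Igfbp4 (ENSMUSG00000017493) on chromosome 11 from 99041244 to 99054392 on the plus strand. Igfbp6 (ENSMUSG00000023046) is on chromosome 15 from 102144362 to 102149511 on the plus strand and Igfbp7 (ENSMUSG00000036256) on chromosome 5 from 77349240 to 77408041 on the minus strand.

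Igfbp4 and Igfbp5 were the members that stood higher by at least 1.5 times in No-Touch fibroblasts, Igfbp4 only just, so the 100 bases before their RefSeq start sites (GRCm38.p6) are shown 5′ to 3′, with a match to the TATA motif TATAAA in capitals. The Igfbp4 stretch is chr11:99041144-99041243 on the plus strand, and the Igfbp5 stretch is chr1:72874866-72874965 on the minus strand. The GENCODE start of Igfbp5, 72874884, lies inside its stretch, so the last bases shown fall within the GENCODE gene.
Igfbp4: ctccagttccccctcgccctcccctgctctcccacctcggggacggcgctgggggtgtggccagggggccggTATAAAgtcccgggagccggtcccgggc
Igfbp5: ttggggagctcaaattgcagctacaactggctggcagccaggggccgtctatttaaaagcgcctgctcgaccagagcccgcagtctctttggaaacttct
The Igfbp4 match begins 28 bases upstream of the start. Both strands of the RefSeq windows from 250 bases before to 50 after each start were searched for TATAAA, for the box CCAAT and for the GC box written GGGCGG. Overlaps with other motifs were allowed. All 9 genes had at least 1 window, 13 in all. TATAAA was in 2 of the 13 (Igfbp4 and Igfbp6), CCAAT in 3 and GGGCGG in 5, beside 13.6%, 37.4% and 35.7% of all 32851 windows. The Igfbp5 window held none of these 3 strings, which says only that these letters are not in it.

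The deposited tables held 11899 barcodes and 200851272 unique molecular identifiers (UMIs, 1 per captured molecule) for the conventional library, and 12450 barcodes and 373319906 UMIs for the No-Touch library. After the limits on quality and the removal of likely doublets, 9462 and 10377 cells were left with a median of 16229 and 27403 UMIs, and 22 barcodes occurred in both libraries. Cells were put into classes by markers that include none of the 9 genes. The conventional and No-Touch libraries gave 6119 and 8208 fibroblast-like cells, 978 and 559 mural cells (smooth muscle-like 271 and 286, pericyte-like 352 and 167, the rest with markers of both kinds), 796 and 387 blood endothelial-like cells, 301 and 277 lymphatic endothelial-like cells and 155 and 218 Schwann-like cells. Despite the sort, leukocyte markers put 409 (4.32%) and 255 (2.46%) cells into leukocyte classes, and Ptprc, the gene of CD45, had a UMI in 6.43% and 8.74% of all cells. Levels are counts per 1000000 (CPM), here the UMIs of a gene per 1000000 UMIs of a class in a library, and intervals are exact 95% intervals that cover counting error only. The UMIs are counted at the 3′ end of transcripts, 1 per molecule, and were not divided by gene length.

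Among classes with at least 50 cells in both libraries, fibroblasts were the main place of Igf1, Igfbp4 and Igfbp6 in both libraries, and Igfbp7 was highest in mural cells, Igfbp3 in blood endothelium and Igfbp5 in lymphatic endothelium. Igf2 was low everywhere and highest in pericytes, and Igfbp2 was high in a few smooth muscle cells. Igfbp5 stood at least 1.5 times higher in the No-Touch library in each of the 4 main classes (fibroblast, mural, blood endothelial and lymphatic endothelial). In blood endothelium 10 cells held 68.5% of its No-Touch UMIs. In smooth muscle cells, a part of the mural class, it went from 484 to 595 CPM and did not reach 1.5 times. Among members at 20 CPM or more in either library, none stood at least 1.5 times lower in these 4 classes under the main settings. Inside the mural class, Igfbp2 stood that much lower in smooth muscle cells, through few cells, and Igfbp3 in pericytes. Below 20 CPM in both libraries, Igf2 in fibroblasts went from 1.91 to 6.04, 2.42 times higher with 1 added. Also below it, Igfbp3 in mural cells went from 17.2 to 8.33, Igfbp2 in fibroblasts from 6.51 to 3.42 and Igfbp2 in lymphatic endothelium from 3.03 to 1.14, the last from 11 and 4 UMIs. The higher fibroblast level of Igfbp5 moved with the mix of fibroblast clusters, as described below.

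**Figure D1:**
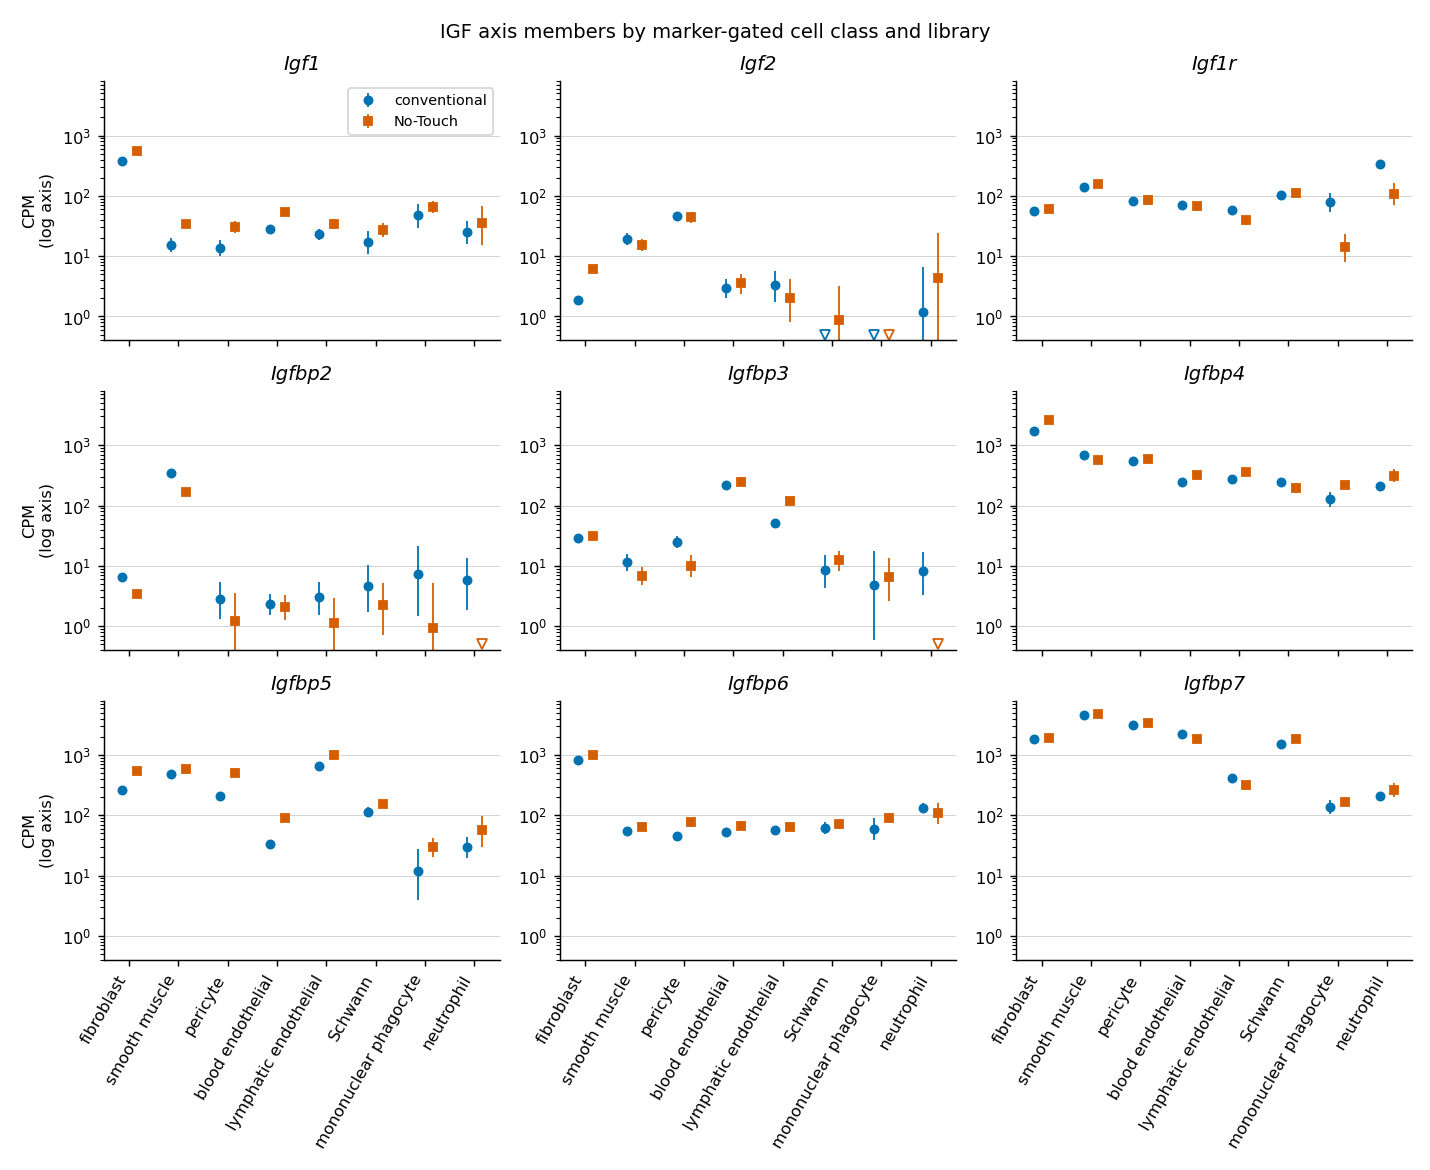
CPM (log axis) of each of the 9 genes in 8 cell classes, conventional library in blue circles and No-Touch library in orange squares. Bars are exact 95% counting intervals and open triangles mark 0 UMIs. Igf1 is at 375 and 557 in fibroblasts and at most at 66.1 elsewhere, and Igfbp7 is highest in smooth muscle cells at 4537 and 4830.4.

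Igf1 was at 375 CPM (371 to 378) in conventional and 557 (555 to 560) in No-Touch fibroblasts, a ratio of 1.49 that lay just under the limit of 1.5. Fibroblasts held 98.2% and 98.9% of all Igf1 UMIs. With every cell thinned to 3000 UMIs, a depth that 6038 and 8089 fibroblasts reached, 48.3% and 63.5% of fibroblasts had an Igf1 UMI (82.2% and 93.4% without thinning). In the other classes Igf1 was low: 14.8 and 31.0 CPM in mural cells, 27.9 and 54.9 in blood endothelium, 22.9 and 33.9 in lymphatic endothelium and 17.2 and 27.5 in Schwann-like cells.

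Neutrophils served as the comparison class for the ligands and binding proteins (not for Igf1r, whose highest conventional level was in neutrophils), and RNA that floats free in a droplet sample gives them UMIs too. Their median depth was 2588 and 4494.5 UMIs, and that of blood endothelial cells 12524.5 and 20502. Neutrophils had Igf1 at 25.6 and 35.0 CPM, and 8.74% of 103 and 13.3% of 45 neutrophils of 3000 UMIs had an Igf1 UMI after thinning. The matching shares were 4.26% and 7.69% in mural cells, 8.63% and 14.2% in blood endothelium and 6.55% and 9.93% in lymphatic endothelium. Of these shares, all but that of No-Touch blood endothelium were at or below the neutrophil share, and that one was less than 1 percentage point above it. The neutrophil shares had counting intervals of 4.07% to 15.9% and 5.05% to 26.8%. Neutrophils were shallower, so free RNA can be a larger part of their UMIs, which thinning does not change. Igf1 in mural and endothelial cells was therefore not set apart from the comparison class, and its source was not tested. In mononuclear phagocytes 9.43% of 53 and 15.1% of 86 thinned cells had an Igf1 UMI, above the neutrophil shares but with counting intervals that overlap theirs, at levels of 48.3 (29.5 to 74.5) and 66.1 (51.6 to 83.6) CPM. Those levels were 12.9% and 11.9% of the fibroblast level, and the fibroblast markers in phagocytes reached at most 9.89% and 11.3% of theirs. Blood endothelial Igf1 was 7.44% and 9.84% of the fibroblast level in the same library, and the 7 fibroblast marker genes stood there at 4.06% to 7.37% and 4.46% to 11.3% of theirs. In No-Touch mural and blood endothelial cells, where Igf1 was higher, the summed fibroblast markers were higher too. They went from 3048 to 4189 CPM in mural cells and from 1131 to 2353 in blood endothelium. Inside the mural class, pericyte markers of this kind rose from 2055 to 3732 CPM and Igf1 from 13.9 to 30.3. In smooth muscle cells these markers fell from 4978 to 4745 CPM while Igf1 rose from 15.4 to 33.9. Mural Igf1 was 3.95% and 5.57% of the fibroblast level, and the median of the 7 markers was 14.6% and 9.98%. The part of fibroblast transcripts in the Igf1 ratios was not tested.

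Inside the fibroblast class Igf1 varied between clusters, with the highest 11.8 and 12.2 times the lowest in the respective libraries. The clusters were made without the 9 genes, and 11 of them held at least 50 fibroblasts in both libraries. Igf1 was highest in cluster 3, led by C1qtnf3, Thbs4 and Cilp, at 732 CPM in conventional and 1053 in No-Touch cells. It was lowest in cluster 19 of the conventional library, led by Sfrp5, Itga6 and Cldn1, at 62.0. In the No-Touch library it was lowest in cluster 11, led by Col2a1, Smoc1, Frzb and the pericyte marker Rgs5, at 86.4. Cluster 11 is the same cluster that held 54 conventional and 175 No-Touch mural cells. Cells of clusters 11 and 19 passed the fibroblast gate, but whether they are fibroblasts was not tested. The ratio of No-Touch over conventional was above 1 in 9 of the 11 clusters, from -0.14 to 2.39 on the log2 scale with a median of 0.61. Cluster 19 had the largest ratio, from 62.0 to 329 CPM.

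Igf2 was a rare transcript in all classes. In pericytes it was at 46.8 CPM (39.5 to 54.9) for the conventional library and 44.0 (36.1 to 53.1) for No-Touch, and in smooth muscle cells at 19.4 (15.1 to 24.7) and 15.5 (12.3 to 19.3). In both cell types the counting intervals of the libraries overlapped. In fibroblasts Igf2 was at 1.91 and 6.04 CPM, from 258 and 1722 UMIs, and 0.60% and 0.91% of thinned fibroblasts had a UMI. Because fibroblasts are many, they still held 33.4% and 78.7% of all Igf2 UMIs, conventional first, and mural cells held 50% and 14.3%. The Igf2 UMIs of mural cells were uneven: 155 of 978 cells had any in the conventional library and 106 of 559 in the other, and the 10 highest cells held 26.7% and 44.1% of them.

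Mural clusters gave another order for Igf2 than the class did. It was higher in the No-Touch library in clusters 6 (led by Colec11 and Ccl19; 44.6 and 59.8 CPM) and 15 (led by Pln, the phospholamban gene of muscle; 20.8 and 47.6), while cluster 11 (led by Sost and Smoc1) had 0 UMIs in 54 conventional cells and 7 UMIs in 175 No-Touch cells. In cluster 6 the 10 highest cells held 29.1% of 354 conventional and 58.1% of 215 No-Touch Igf2 UMIs, which left 251 and 90 in the others. The higher No-Touch level of cluster 6 thus rested on few cells. Cluster 11 was 5.52% of the mural cells of conventional grafts and 31.3% of those of No-Touch grafts, and over the class Igf2 was at 36.8 and 33.8.

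The receptor Igf1r was spread over the classes. Neutrophils of the conventional library had the highest level, 332 CPM (294 to 373), and the 46 No-Touch neutrophils were at 109 (70.7 to 161) from 25 UMIs. Smooth muscle cells followed at 138 (126 to 151) and 156 (146 to 167), then Schwann-like cells at 102 (85.6 to 121) and 110.5 (97.2 to 125), pericytes at 82.8 (73.1 to 93.4) and 83.9 (72.9 to 96.1), blood endothelium at 69.9 (65.1 to 75.0) and 68.0 (62.6 to 73.8), fibroblasts at 56.2 (54.96 to 57.5) and 59.99 (59.1 to 60.9) and lymphatic endothelium at 57.6 (50.04 to 65.9) and 39.1 (32.8 to 46.2). The intervals of pericytes and blood endothelium overlapped in both libraries, and conventional lymphatic endothelium overlapped with fibroblasts and with blood endothelium. Conventional Schwann-like cells overlapped with pericytes, and No-Touch neutrophils with smooth muscle and Schwann-like cells. Mononuclear phagocytes had 33 Igf1r UMIs in 84 conventional and 15 in 93 No-Touch cells, levels of 79.6 and 14.2. The 108 No-Touch T or NK cells had 6 Igf1r UMIs, a level of 4.03.

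Between the libraries Igf1r was within 1.5 times in the 4 main classes, with the largest difference in lymphatic endothelium. Its log2 ratio was 0.09 (0.05 to 0.13) in fibroblasts, 0.30 (0.19 to 0.42) in mural cells, -0.04 (-0.20 to 0.12) in blood endothelium and -0.55 (-0.88 to -0.24) in lymphatic endothelium. In mural cells the share of smooth muscle cells, which had more Igf1r than pericytes, moved with it: the log2 ratio was 0.18 in smooth muscle cells and 0.02 in pericytes. Over the 11 fibroblast clusters the ratio ran from -0.33 to 0.54, and cluster 11 was highest in both libraries, at 101 and 104 CPM.

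Among the binding proteins, Igfbp4, whose product holds IGF until the protease PAPP-A cuts it, was at 1728 CPM (1721 to 1735) in conventional and 2665 (2659 to 2671) in No-Touch fibroblasts, 1.54 times higher. Its log2 ratio of 0.62 was close to the limit of 1.5 times, and with median-of-ratios scaling it was 0.57, which no longer reached it. It was detected in 90.2% and 95.7% of fibroblasts after thinning, and in 98.9% and 99.7% without it. Of the 11 fibroblast clusters all had a higher Igfbp4 level in the No-Touch library, with log2 ratios of 0.06 to 1.2 and a median of 0.51. The largest ratio was in cluster 2, led by Fmo2 and Apoe, at 1915 and 4412 CPM. The smallest was in cluster 19, at 1883 and 1958.

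In other classes Igfbp4 was lower: 658 and 606 CPM in mural cells, 242 and 327 in blood endothelium, 279 and 359.7 in lymphatic endothelium and 242 and 199 in Schwann-like cells. Neutrophils had 213 and 315. After thinning, 40.8% and 60% of neutrophils had an Igfbp4 UMI, beside 44.8% and 56.0% of blood endothelial, 51.7% and 57.7% of lymphatic endothelial and 74.7% and 78.2% of mural cells. The mural share stood above the neutrophil share in both libraries. The endothelial shares stood above it in the conventional and below it in the No-Touch library.

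Igfbp5, a matrix-bound binding protein, was at 265 CPM (262 to 267) in conventional and 542 (539 to 545) in No-Touch fibroblasts, 2.04 times higher. The share of thinned fibroblasts with a UMI was 24.0% and 34.8%. Its level depended strongly on the cluster. It was above 1000 in both libraries in cluster 4 (led by Sema3c and Cd55; 2008 and 1255 CPM), cluster 19 (1506 and 1590) and cluster 16 (led by Angptl7 and Tenm2; 1161 and 1450), and at most 500.3 in the remaining 8.

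The difference over the whole class and the ratios within clusters were not alike. Igfbp5 was higher in the No-Touch library in 7 of the 11 clusters, with log2 ratios from -0.91 to 1.91 and a median of 0.31, against 1.03 for the class. Cluster 3 had the largest ratio, from 109 to 411 CPM, and cluster 4, the highest of the conventional library, fell from 2008 to 1255. Cluster 4 was 1.93% of the conventional fibroblasts and 17.8% of the No-Touch ones, and clusters 1 and 2, at 332 and 116 in the conventional library, were 33.4% and 28.5% of the class there but 0.87% and 0.65% of it in the No-Touch library. With the 11 clusters weighted equally, an alternative chosen after seeing the data, the log2 ratio of Igfbp5 in fibroblasts was 0.04 and that of Igfbp4 0.62. A cluster that comes mostly from 1 library, as 6 of 15 did for each library, may be a state of that library rather than a type of cell, and these cannot be told apart here.

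**Figure D2:**
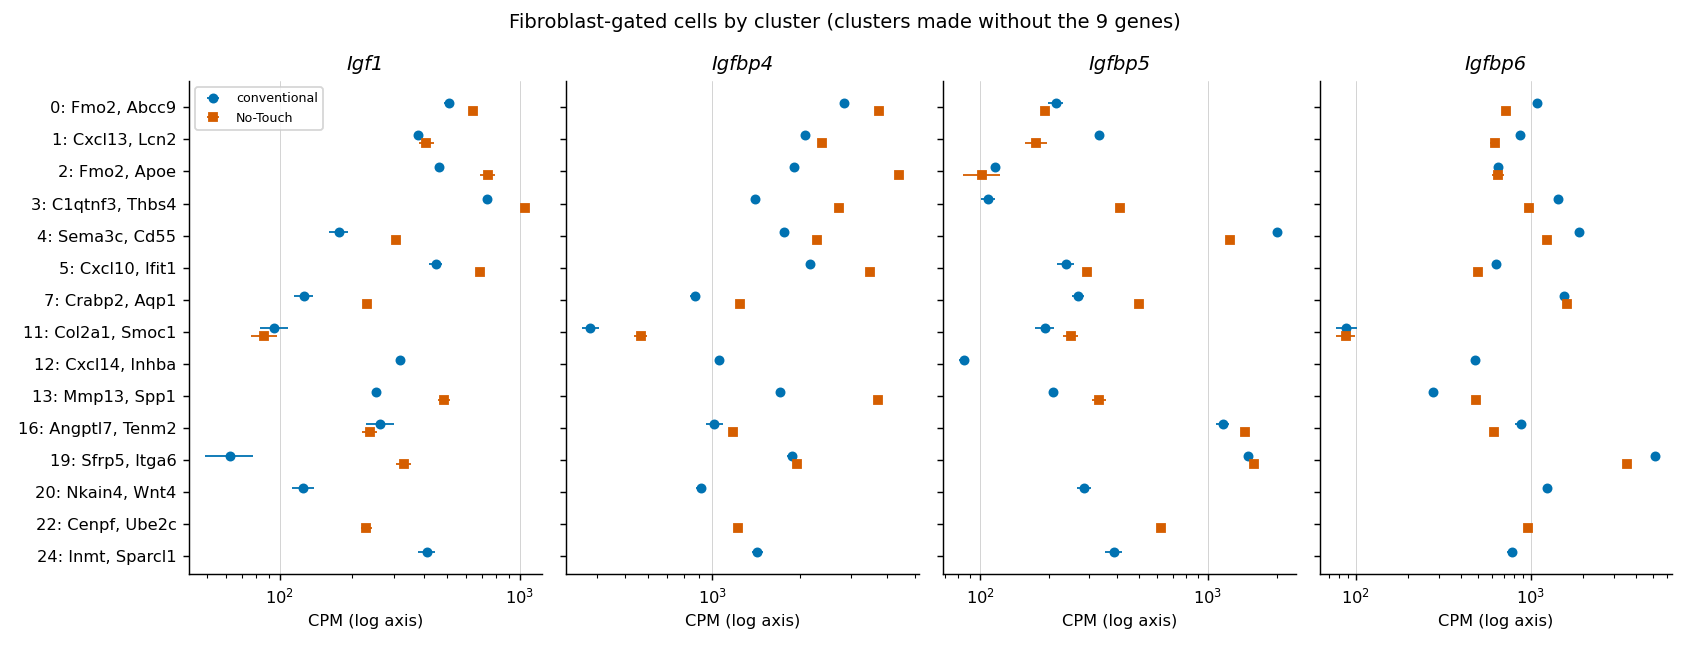
CPM (log axis) of Igf1, Igfbp4, Igfbp5 and Igfbp6 in fibroblast-like cells of each cluster, labelled by its number and its 2 leading genes, with exact 95% counting intervals. Clusters with under 50 cells in a library lack that library's point. Igfbp4 lies further right in the No-Touch library in all 11 clusters that have both points, while Igfbp5 is above 1000 in clusters 4, 16 and 19 of both libraries and lower elsewhere.

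In mural cells Igfbp5 was at 363 CPM (351 to 374) and 619 (603 to 635), 1.70 times higher in the No-Touch library. Pericytes went from 209 to 498 and smooth muscle cells from 484 to 595, log2 ratios of 1.25 and 0.30. All 3 mural clusters had a higher level in the No-Touch library: 333 and 665 in cluster 6, 110.4 and 148 in cluster 11, and 681 and 1415 in cluster 15. Without cluster 11 the log2 ratio of the class was 1.22 in place of 0.77, an alternative chosen after seeing the data.

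Lymphatic endothelium had the highest Igfbp5 level of the classes with at least 50 cells in both libraries, 653 (627 to 680) and 989.8 (957 to 1023) CPM, 1.51 times apart. The log2 ratio of 0.60 was close to the limit, and fell to 0.46 with cells thinned to 3000 UMIs. In blood endothelium Igfbp5 was at 33.1 and 90.7, 2.69 times apart. Much of it came from few cells: 165 of 796 conventional and 158 of 387 No-Touch cells had a UMI, and the 10 highest cells held 46.3% and 68.5% of the UMIs, with 167 UMIs in a single No-Touch cell. The remaining cells held 198 and 243 UMIs. After thinning 6.93% and 11.9% of blood endothelial cells had an Igfbp5 UMI, below the 8.74% and 20% of neutrophils. The blood endothelial share thus did not stand above that of the comparison class, but a share of cells cannot show high counts in few cells. All neutrophils together had 26 and 13 Igfbp5 UMIs. The source of the endothelial UMIs was not tested.

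Igfbp6, whose product prefers IGF2, was at 820.4 CPM (816 to 825) in conventional and 995 (991 to 999) in No-Touch fibroblasts, a log2 ratio of 0.28. The other classes with at least 50 cells in both libraries were at 44.9 to 90.7, and neutrophils at 132 and 109. After thinning, at most 22.3% of mural or endothelial cells had an Igfbp6 UMI, against 31.1% and 28.9% of neutrophils. No Igfbp6 share above that of the comparison class was seen in mural or endothelial cells, and the source of these UMIs was not tested. Mononuclear phagocytes had shares of 18.9% and 31.4%. Within fibroblasts, Igfbp6 was highest in cluster 19 (5099 and 3551), and in 9 of the 11 clusters it was lower in the No-Touch library. Cluster 13, led by Mmp13 and Spp1, had the only ratio above 1.5, from 275 to 487. The median log2 ratio of the clusters was -0.48, so the sign over the class and the sign in most clusters were opposite, and with clusters weighted equally the class ratio was -0.38.

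Among the classes, Igfbp2 had its highest level in smooth muscle cells, at 344 CPM (325 to 364) and, in the No-Touch library, 168 (157 to 180). The log2 ratio was -1.03. The mural class as a whole was at 116 and 95.5, and the remaining classes with at least 50 cells in each library were below 10. Because fibroblasts are many, they held 25.7% and 43.2% of all 3425 and 2258 Igfbp2 UMIs, and mural cells held 35.6% and 39.1%. Blood endothelium held 0.76% and 0.80%, and lymphatic endothelium and Schwann-like cells less. The rest lay mostly in cells outside the classes named here. Among these were the 565 and 448 cells with no class, whose Igfbp2 level was not computed. Fibroblasts of cluster 11 stood at 48.8 and 58.2. The level rested on few cells: of all 978 and 559 mural cells, 49 and 30 had an Igfbp2 UMI, and the 10 highest cells held 87.5% of 1221 and 97.6% of 883 UMIs. Those cells were mostly in cluster 11, where 20 of 54 conventional cells had 1165 UMIs and 18 of 175 No-Touch cells had 841, at 1213 and 241 CPM. Outside cluster 11 the mural clusters were between 1.67 and 6.67. Counting intervals treat UMIs as independent and are far too narrow for a gene read from 10 cells, so the fall in smooth muscle cells was not taken as a difference between the libraries.

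**Figure D3:**
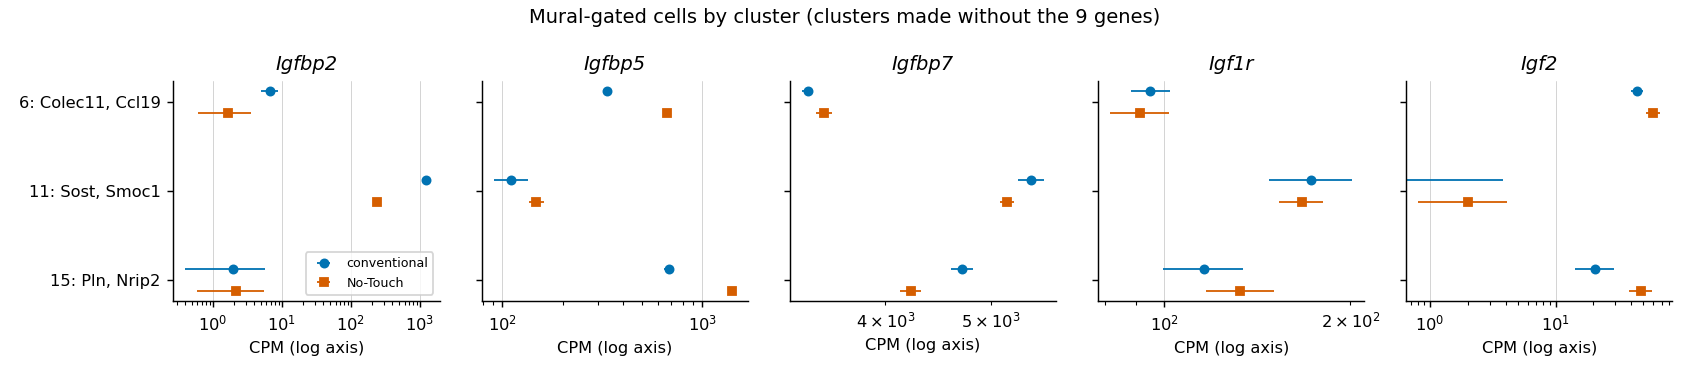
CPM (log axis) of Igfbp2, Igfbp5, Igfbp7, Igf1r and Igf2 in the 3 clusters of mural cells, conventional library in blue circles and No-Touch library in orange squares, with exact 95% counting intervals. Igfbp2 is high in cluster 11 alone (1213 and 241), Igfbp5 is higher in the No-Touch library in all 3 clusters, and Igf2 in conventional cluster 11 is 0 and shows as an upper interval only.

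Igfbp3, the main carrier of IGF in blood, was highest in blood endothelium at 220.2 (212 to 229) and 249 (238 to 260) CPM. It was unevenly spread: the 10 highest cells held 37.9% and 56.1% of its UMIs, and 33.8% and 29.2% of blood endothelial cells had a UMI. Cluster 18, led by Gpihbp1 and Cldn5, genes known from capillary endothelium, had 776 in 153 conventional cells and 1782 in 47 No-Touch cells. That cluster was below the limit of 50 cells in the No-Touch library and was singled out after its values were seen. Cluster 8, led by Csf3, Ackr1 and Selp, genes known from venules, had 82.5 and 80.5. Neutrophils had 7 Igfbp3 UMIs in 319 conventional cells and 0 in 46 No-Touch cells, which allows up to 13.1 CPM (3 counts).

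Lymphatic endothelial Igfbp3 was at 52.3 (45.2 to 60.3) and 119.5 (108 to 132), 2.26 times apart on the scale with 1 added, with a UMI in 10.3% and 19.1% of thinned cells. The 10 highest cells held 50.5% and 47.3% of its 190 and 419 UMIs, and the UMIs of the remaining cells numbered 94 and 221. In fibroblasts Igfbp3 was at 28.4 and 31.6 and in pericytes at 24.6 and 10.1, the latter from 78 and 25 UMIs. Fibroblast cluster 24, led by Inmt and Sparcl1, had 276 in 92 conventional cells, and only 3 fibroblasts of the No-Touch library fell into it.

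Igfbp7 was the most abundant member in mural cells, blood endothelium and Schwann-like cells. Smooth muscle cells had 4537 and 4830.4 CPM, pericytes 3188 and 3423, blood endothelium 2244 and 1829, fibroblasts 1864 and 1935, Schwann-like cells 1544 and 1842 and lymphatic endothelium 421 and 324. All neighbours in this order within a library were apart by more than their counting intervals except Schwann-like cells and blood endothelium of the No-Touch library. Between the libraries its log2 ratio stayed within 0.4 of 0 in all of these classes, from -0.38 in lymphatic endothelium to 0.25 in Schwann-like cells. In blood endothelium the log2 ratio was -0.29 (-0.32 to -0.27), while within cluster 8 the levels were 2016 and 2029.95. Cluster 25, led by Cytl1 and Gxylt2, held 66 of the No-Touch and 5 of the conventional blood endothelial cells and had an Igfbp7 level of 634.

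Over the 4 main classes, members were counted as higher or lower when at least 1.5 times apart and at 20 CPM or more in either library. In fibroblasts 2 of 7 measured members were higher (Igfbp4 and Igfbp5) and 0 lower, beside 7.58% of 6160 genes higher and 3.46% lower. In mural cells 2 of 8 were higher (Igf1 and Igfbp5) and 0 lower, beside 10.9% of 6608 genes higher and 7.2% lower, and Igf1 reached the floor of 20 only through its No-Touch level. Its 2 parts differed. Smooth muscle cells had 1 of 7 higher (Igf1) and 1 lower (Igfbp2), beside 13.5% and 11.2% of 6571 genes. Pericytes had 3 of 8 higher (Igf1, Igfbp5 and Igfbp6) and 1 lower (Igfbp3), beside 10.6% and 5.36% of 6580 genes. In blood endothelium 2 of 7 were higher (Igf1 and Igfbp5) and 0 lower, beside 11.2% of 6572 genes higher and 6.95% lower. In lymphatic endothelium 2 of 7 were higher (Igfbp3 and Igfbp5) and 0 lower, beside 8.21% of 6639 genes higher and 6.67% lower.

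The median log2 ratio of the measured members was 0.28 in fibroblasts, 0.24 in mural cells, 0.34 in blood endothelium and 0.36 in lymphatic endothelium, where that of all measured genes was 0.06, 0.06, 0.03 and -0.02. Each count is of 7 or 8 genes, and genes that were not set apart from the neutrophil share in a class are among them. In mural cells Igf1, 1 of the 2 counted genes, was such a gene. In blood endothelium the 2 counted genes, Igf1 and Igfbp5, both were, and 10 cells held 68.5% of the No-Touch Igfbp5 UMIs, which a share of cells does not show.

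**Figure D4:**
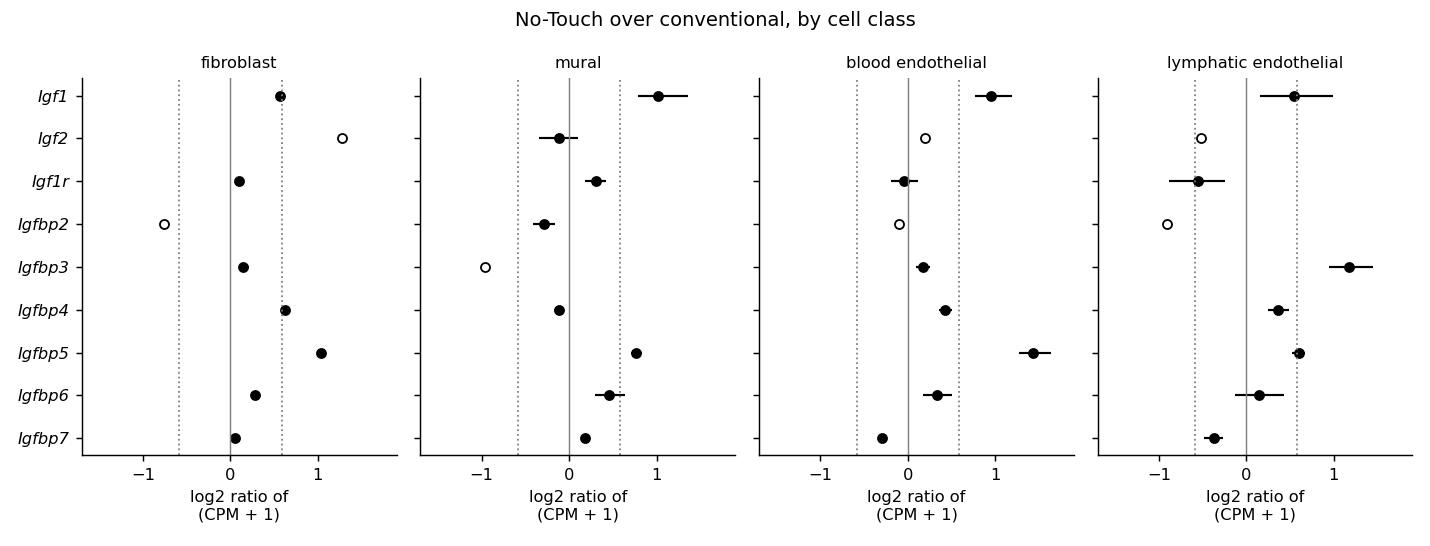
Log2 ratio of No-Touch over conventional (CPM + 1) of the 9 genes in the 4 main classes. Bars are exact 95% counting intervals, dotted lines mark 1.5 times, and open points are genes under 20 CPM in both libraries, drawn with no interval. Igfbp5 is to the right of the dotted line in all 4 classes, at 1.03, 0.77, 1.43 and 0.60.

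A list of 38 other genes of the pathway was read in the same way. In fibroblasts 1 of 20 measured genes was higher and 0 lower, beside 7.58% and 3.46% of all measured genes. The higher one was H19, a noncoding RNA imprinted together with Igf2, at 30.0 and 50.1 CPM. Other genes with large ratios there did not reach 1.5 times: Foxo1, a transcription factor held out of the nucleus by Akt, was at 61.8 and 41.6 and its relative Foxo3 at 49.8 and 36.4. In mural cells 2 of 24 were higher and 3 lower, beside 10.9% and 7.2% of all measured genes. The growth hormone receptor gene Ghr, at 16.02 and 30.9, and the insulin receptor gene Insr, at 18.3 and 32.7, were higher, and both reached the floor of 20 only through their No-Touch level. Among the lower genes were H19, at 21.3 and 10.4, and Eif4ebp1, which encodes a translation repressor downstream of mTOR, at 129 and 84.7.

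In blood endothelium 3 of 22 were higher and 3 lower, beside 11.2% and 6.95% of all measured genes. The higher ones were Htra1, a secreted protease, at 39.2 and 109, Ghr at 21.5 and 52.1, and Adam12, a protease known to cut IGF binding proteins, at 12.5 and 24.4, which reached the floor only through its No-Touch level. The lower ones were Stc2 at 23.3 and 12.0, Stc1 at 210.2 and 118, and Eif4ebp1 at 144 and 77.2, and the stanniocalcin encoded by Stc2 is known to inhibit PAPP-A. Htra1 stood at 312 and 392 in fibroblasts, so its part among fibroblast transcripts in endothelium was not tested. In lymphatic endothelium 1 of 19 was higher and 3 lower, beside 8.21% and 6.67% of all measured genes. The higher one was Htra1 at 18.5 and 34.8, again above the floor only in the No-Touch library. The lower ones were Stc1 at 252 and 124, Eif4ebp1 at 147 and 78.4 and Tsc1, which restrains mTOR, at 23.1 and 14.0. Stc1 was lower in both endothelial classes, and Eif4ebp1 in 3 of the 4 main classes. The median log2 ratio of the list was 0.01, 0.03, -0.06 and -0.15 in the 4 classes in the order given.

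The genes most like each member were found by Pearson's r of log2(CPM + 1) over 15 points, each a class in a library with at least 50 cells, among 6321 genes. The points share libraries and depth, and r is a description. For the fibroblast members they were Cfb, Angptl1 and P4hb for Igf1 (r of 0.97, 0.94 and 0.94), Fbn1, Pamr1 and C1ra for Igfbp4 (0.97, 0.96 and 0.95) and Pi16, Sbsn and Fbln1 for Igfbp6 (0.99, 0.98 and 0.97). Igf2 was nearest to Ccnd2, Ptp4a3 and Colec11 (0.94, 0.94 and 0.93), all highest in pericytes, and Igfbp3 to Cyyr1, Serpinb9 and Asah2 (0.94, 0.93 and 0.92), all highest in blood endothelium. Igfbp2 was nearest to Perp, Susd5 and Xirp1 (0.93, 0.93 and 0.92), all highest in smooth muscle cells, Igfbp5 to Tgfb3, Ank2 and Igsf3 (0.93, 0.91 and 0.91), and Igfbp7 to Cdr2, Ak3 and Lzts2 (0.95, 0.95 and 0.94). Igf1r had the weakest likeness, to Ublcp1, Med21 and Sidt2 (0.80, 0.78 and 0.75), whose highest levels were in conventional neutrophils.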

How the data were processed

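The deposited files hold UMI counts, 1 table per library, and the group of each library is in its sample title. Cell Ranger 3.1.0 and mm10 are named per the submitters' processing notes, but per the file headers version 6.0.0 wrote the tables. No source used here states whether strand was used.

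Barcodes needed 500 genes, 1000 UMIs and a mitochondrial share of 10% or less. The highest Scrublet scores (scanpy 1.11.5) were removed at 0.8% per 1000 barcodes (9.52% and 9.96%), because the automatic threshold marked 0% of No-Touch barcodes. A cell joined a class when its mean scaled marker level was at least 0.3 and 0.15 above the next class, with 3 markers detected; these limits were set after the marker values were seen, without the members. Of the kept cells 471 and 384 lay within 0.05 of a limit, and 565 and 448 had no class. Leiden clusters (leidenalg 0.10.2) used 2000 variable genes without the members, 30 components, 15 neighbours and resolution 1.

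UMIs were summed per class and library, and ratios are log2 of CPM + 1. Their 95% intervals split the counts by the exact binomial, without the added 1. The computation was tested on simulated sums with counting error only, which lack the uneven spread between cells seen here. The limit on falsely called genes in that test was relaxed after lymphatic endothelium first failed it. Named genes are all members, up to 4 pathway genes per class with the largest ratios, 3 like genes per member, and genes that lead a cluster. The values of 1 pathway gene are not reported here. Members and lists were chosen with earlier results of these data known. Alternatives changed pseudocount, doublets, scaling, weighting, class definition, mitochondrial limit, thinning, floor and fold.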

Additional observations from a re-analysis of the deposited data

How the results depend on the processing

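Of 104 recomputed counts of higher or lower members, 86 stayed within 1.5 times of the main count, 10 fell and 8 rose beyond it, and of 360 recomputed ratios 250 stayed within the main value's counting interval and 110 fell outside it, while none of a counted member changed sign. The count of higher members was 1 in place of 2 in fibroblasts with median-of-ratios scaling or at 2 times apart (both without Igfbp4) and with clusters weighted equally (without Igfbp5), in mural cells at a floor of 50 CPM and at 2 times apart, in blood endothelium at 2 times apart, and in lymphatic endothelium with doublets kept, cells weighted equally, 2 times apart or clusters weighted equally. The count of lower members was 1 in place of 0 in fibroblasts with no filter on low values (Igfbp2), in mural cells with cells weighted equally, cells thinned to 3000 UMIs or no filter (Igfbp3) and with clusters weighted equally (Igfbp2), and in lymphatic endothelium with cells weighted equally or thinned (Igf1r) and with no filter (Igfbp2). Weighting clusters equally and leaving out clusters 11 or 20 were chosen after seeing the data. The log2 ratio of Igfbp5 in fibroblasts ran from 0.04 to 1.05 over 10 alternatives and that of Igfbp2 in mural cells from -2.31 to 0.27. No paired analysis was possible because each group is 1 library. Igf2 and Igfbp2 had under 20 CPM in fibroblasts and both endothelial classes. Few UMIs limit them in the endothelial classes. In fibroblasts the 10 highest cells held 29.8% and 35.2% of the Igf2 UMIs and 49.1% and 49.8% of the Igfbp2 UMIs. Differences of grafts, animals, kit version and library cannot be told apart.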
